A study of Mus musculus with 6 samples.

Results

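Translation factors carry messenger RNA through initiation and elongation on the ribosome. The small ribosomal subunit is loaded with eIF1, eIF1A, eIF3 and a ternary complex of eIF2, GTP and initiator tRNA, eIF4E, eIF4G and eIF4A bring it to the capped mRNA, and eIF5 and eIF5B close the step at the start codon. eEF1A then delivers aminoacyl tRNA, the eEF1B subunits recharge eEF1A with GTP, and eEF2 moves the ribosome along the message. In male germ cells many mRNAs are stored and translated late, and several of these factors have paralogs that differ between cell types.

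The genes described here were all protein-coding rows of the deposited table whose symbol begins with Eif1 to Eif6, Eef1 or Eef2. The rule found 68 of the 54532 genes in the table, and used no expression value. Besides the factors themselves it takes in kinases of eIF2, binding proteins of eIF4E, methyltransferases of the elongation factors and some genes that carry the name for other reasons. RNA-seq had been made from STRA8-positive (STRA8+) cells of mouse testis. The 3 control libraries carry the genotype Cre and the 3 conditional knockout (cKO) libraries the genotype *Srsf1* knockout, so that loss of the splicing factor SRSF1 is the difference named by the labels. Age, strain, the Cre driver and the way in which STRA8+ cells were obtained are not given in the sources used here, and nothing says whether the 3 samples of a group came from separate animals, so p-values measure the spread between these samples, which may be technical.

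Between 14447887 and 17310353 fragments per library were counted on genes. *Srsf1* had 84.7, 45.2 and 51.9 FPKM (fragments per kilobase of gene, divided by a scaling factor of the library) in the 3 controls and 5.08, 4.94 and 5.17 FPKM in the cKO libraries. *Stra8* itself had 222.1 to 261.7 FPKM in the controls and 242.1 to 312.7 FPKM in cKO libraries. RNA of later stages differed between the groups. All 10 pachytene spermatocyte markers and all 10 spermatid markers were lower in cKO libraries, with summed levels of 1142 to 1360 FPKM in control against 241.6 to 267.1 FPKM in cKO libraries for the former, and of 2583 to 8622 FPKM against 8.61 to 10.4 FPKM for the latter, with the 8622 FPKM in control replicate 2. Summed markers of differentiating spermatogonia had 1361 to 1366 FPKM in the controls and 1493 to 1511 FPKM in cKO libraries, and 1 of these 10 genes was called lower. Early meiotic markers summed to 827.5 to 1121 and 843.7 to 1106 FPKM, with 3 of 10 called lower, and undifferentiated spermatogonia markers to 56.8 to 70.8 and 62.7 to 71.3 FPKM, with 1 called higher and 1 lower. Somatic markers were low in both groups, at 13.3 to 37.0 FPKM in sum for 6 Sertoli cell genes, of which 1 was called higher, and at most 13.98 FPKM in sum for each list of Leydig cells, peritubular cells, and macrophages, endothelium and blood. The peritubular sums were 3.69 to 6.44 FPKM in control and 7.04 to 8.16 FPKM in cKO libraries, without overlap. The sums of the other somatic lists overlapped. In bulk RNA, fewer cells of a type and less RNA per cell cannot be told apart, and the part of these stages in the values below was not tested.

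Some mRNAs of the translation machinery start with an uninterrupted stretch of pyrimidines (C or T), the terminal oligopyrimidine tract through which mTOR signalling controls their translation. Windows of 30 bases around annotated starts, 10 before and 20 from the start on, are shown here for genes to which the results return: the X- and Y-linked pair of eIF2 gamma, the most abundant elongation factors, and the called genes *Eif4a1* and *Eif4e2*. Capitals mark the longest run of C or T in each window, and the sequences, 5′ to 3′ on the strand of the gene, are those of RefSeq on GRCm38.p6.
Eif2s3x: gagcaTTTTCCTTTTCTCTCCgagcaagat
Eif2s3y: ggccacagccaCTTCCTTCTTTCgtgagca
Eef1a1: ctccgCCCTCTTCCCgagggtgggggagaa
Eef2: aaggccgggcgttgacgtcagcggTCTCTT
Eif4a1: gtaacgTCacgtcgagttgcagagcgccgg
Eif4e2: ggCCCTTagcgatgggacccggtagagcgg
They lie at chrX:94212632-94212661 (minus strand), chrY:1010585-1010614 (plus), chr9:78481705-78481734 (minus), chr10:81176621-81176650 (plus), chr11:69672404-69672433 (minus) and chr1:87213929-87213958 (plus). An entry was found for 52 of the 68 genes. A run of at least 8 pyrimidines lay anywhere in the window of 10 of them (19.2%), against 13.05% of 9717 protein-coding genes tested that have an entry, and where a gene has several listed starts the longest run was taken. Such a run need not be a terminal tract. It covered the annotated start base in 5 of the 10 genes (*Eef1a1*, *Eif2b5*, *Eif2s3x*, *Eif3f* and *Eif3l*; 9.62% of 52, against 4.497% of the 9717), ended before it in 2 and began after it in 3. The run was 16 bases long for *Eif2s3x*, 15 for *Eif3f* and 12 for *Eif2s3y*. The runs of *Eif2b5* (14 bases), *Eif4enif1* (10) and *Eif4e* (8) begin on the first base of the window and that of *Eef2* (6, after the start) ends on the last, so the window limits these lengths, and *Eef2* was counted as a gene without a run. So were, among others, *Eef1akmt2* (7, from the first base) and *Eif3k* (7, to the last base), so the count of 10 depends on the window. Of the 10 genes with such a run 1 was called in the comparison described next, against 10 of 41 tested genes without it and 34.0% of all genes tested, and the median log2 fold changes were 0.04 and 0.07. Of the starts listed in RefSeq, 56.6% lie within 5 bases of a transcript start in GENCODE M21, so the windows do not always begin where transcription does.

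Translation factor genes were abundant and changed little between control and cKO libraries. Of the 68 genes, 54 had a mean of at least 10 FPKM and 10 had at least 100 FPKM. A mean of 1 FPKM or more was needed for testing, which 64 genes reached, and their median level was 35.0 FPKM, against 6.71 FPKM for all 15451 genes tested. Together the 68 genes took 147.6 to 157.6 of every 10000 counted fragments in the control libraries and 148.8 to 156.6 in the cKO libraries.

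**Figure D1:**
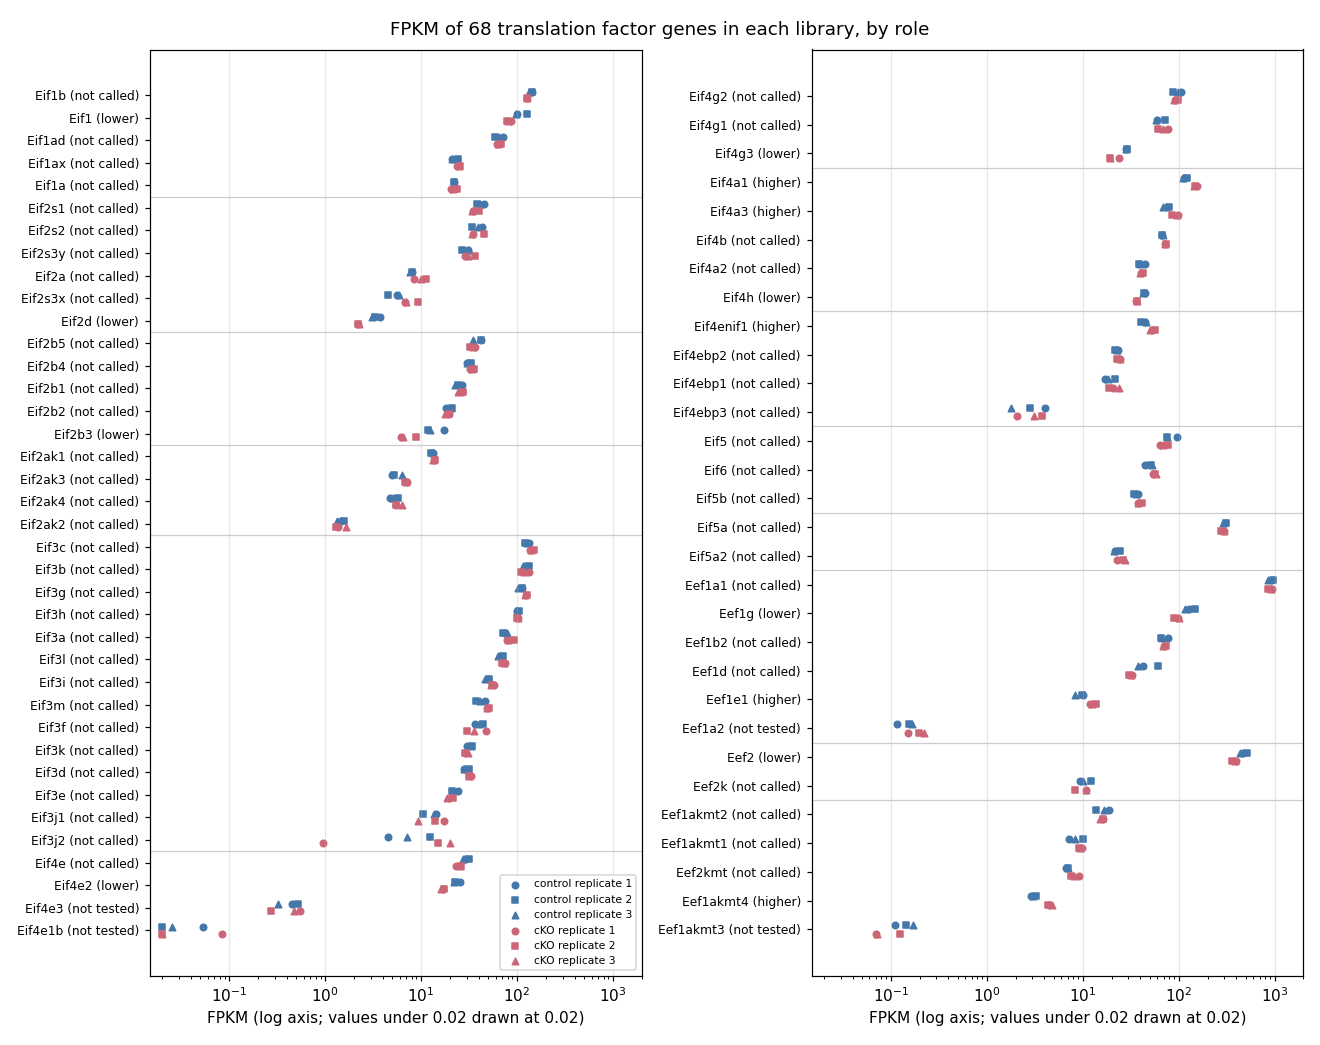
FPKM of each of the 68 genes (log axis) in the 3 control libraries (blue) and the 3 cKO libraries (red), with genes grouped by role and the call in parentheses. Most pairs of groups lie beside each other or overlap, and *Eif3j2* spreads most widely, from 0.963 to 20.1 FPKM within the cKO group.

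With limma on log2(FPKM + 1) and Benjamini-Hochberg adjustment over all genes, 13 of 64 genes (20.3%) were called at an adjusted p of at most 0.05, against 34.0% of all genes tested. Of these, 5 were higher in cKO libraries (11.8% of all genes were) and 8 were lower (22.2% of all genes were). None of the 64 was called with a log2 fold change of at least 1 in either direction, while 13.7% of all genes were; 22 of the 64 (34.4%) had an unadjusted p under 0.05, against 44.8% of all genes. Limma-voom on the fragment counts recovered from the table called 11 higher and 7 lower (28.1% of the 64, against 37.6% of all genes). The balance of directions depended on the scaling. Under quantile normalization 24 of the 64 were higher and 5 lower (45.3%, against 49.8% of all genes), and over all genes 5164 were higher and 2527 lower, where the test as designed called 1821 higher and 3437 lower. The median log2 fold change over all genes was then 0.21. On the deposited scale, the change was within 0.25 on the log2 scale for 46 of 64 genes (71.9%), against 46.5% of all genes, and above 0.5 for 2 of them, *Eif2b3* and *Eef1d*. The median log2 fold change was 0.04, against -0.01 over all genes. Its absolute value had a median of 0.14, against 0.27 over all genes and 0.25 over the 12320 protein-coding genes tested. No set of genes matched for level was compared. Among the 51 genes that were not called, 42 had a 95% confidence interval that lay between -0.5 and 0.5. The groups did not overlap for 29 of 64 genes, 18 with cKO above and 11 with cKO below, against 50.4% of all genes (21.8% above and 28.6% below). The counts depended on single libraries: 3 genes were higher without control replicate 3 or without cKO replicate 2 and 1 without cKO replicate 3, and lower genes numbered 3 without control replicate 1 or cKO replicate 1, 4 without cKO replicate 2 and 2 without cKO replicate 3. The share of all genes called fell in the same fits, to 25.5% without control replicate 1, 26.03% without control replicate 3, 26.6%, 27.7% and 23.7% without cKO replicates 1, 2 and 3.

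**Figure D2:**
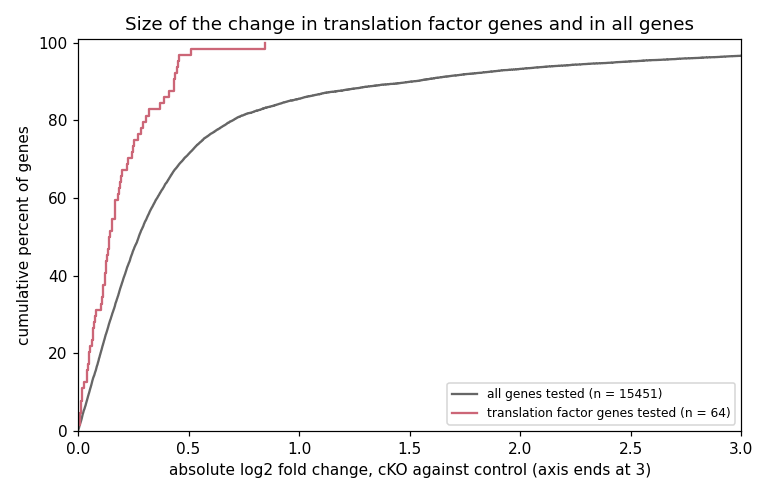
Cumulative percent of genes against the absolute log2 fold change (cKO against control), for the 64 tested translation factor genes and for all 15451 genes tested. The curve of the translation factors rises earlier, with 71.9% of them within 0.25 against 46.5% of all genes. The sets were not matched for level (median 35.0 against 6.71 FPKM).

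Among the factors that scan for the start codon, *Eif1* was lower in cKO libraries. eIF1 and its paralog eIF1B keep the scanning ribosome from starting at the wrong codon, and eIF1A works beside them. *Eif1* (ENSMUSG00000035530, chromosome 11) had 100.3, 127.8 and 98.5 FPKM in the controls and 87.3, 78.8 and 81.2 FPKM in cKO libraries, a log2 fold change of -0.39 (SE 0.11, limma adjusted p = 0.036). All cKO libraries lay below all controls, and the highest value was that of control replicate 2, the library with the most spermatid RNA. The call was lost in limma-voom, with FPKM recomputed without the library factor, without a filter, without the variance trend, and without control replicate 1 or any of the 3 cKO replicates. Of the 100-base windows of its annotated transcripts, 88.8% occur in no other gene. *Eif1b* had 142.2, 143.1 and 135.0 FPKM in the controls and 126.6, 127.5 and 128.8 FPKM in cKO libraries, which do not overlap either, with a log2 fold change of -0.13 that missed the threshold (limma adjusted p = 0.13). The X-linked *Eif1ax* (20.97, 24.1 and 20.9 against 24.0, 25.4 and 24.8 FPKM) and the autosomal *Eif1a* (22.1, 22.2 and 22.1 against 20.6, 23.7 and 21.5 FPKM) stood at the same level and overlapped between groups. *Eif1ad*, which takes its name from an eIF1A-like domain, had 65.5 ± 5.57 FPKM in the controls and 64.9 ± 3.75 FPKM in cKO libraries (SD, n = 3).

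For eIF2, which brings initiator tRNA as a trimer of alpha, beta and gamma subunits, none of the subunit genes passed the test. Over all genes tested, 34.0% did. *Eif2s1* (alpha) had 41.7 ± 3.72 and 36.3 ± 3.37 FPKM in the controls and cKO libraries, and *Eif2s2* (beta) 38.8 ± 4.59 and 38.2 ± 6.24 FPKM (SD, n = 3). The gamma subunit has a copy on each sex chromosome, and in mice the Y-linked copy is known for its role in the proliferation of spermatogonia. The Y-linked *Eif2s3y* was the more abundant, with 30.8, 26.7 and 31.8 FPKM in the controls and 29.2, 36.8 and 30.6 FPKM in cKO libraries. The X-linked *Eif2s3x* had 5.62, 4.57 and 5.98 FPKM in the controls and 6.81, 9.30 and 7.08 FPKM in cKO libraries, and all cKO libraries were above all controls. Its log2 fold change of 0.45 (95% interval 0.10 to 0.79) narrowly missed the threshold (limma adjusted p = 0.053), and limma-voom called it higher. Only 66.3% of the 100-base windows of *Eif2s3x* occur in no other annotated gene. *Eif2a*, which can bring initiator tRNA without GTP, had 7.98 ± 0.182 and 10.02 ± 1.47 FPKM with no overlap (limma adjusted p = 0.094), and limma-voom called it higher as well. *Eif2d*, a factor of initiation and ribosome recycling outside the eIF2 complex, was lower, with 3.73, 3.34 and 3.12 FPKM in the controls and 2.23, 2.23 and 2.28 FPKM in cKO libraries (log2 fold change -0.44, SE 0.11, limma adjusted p = 0.023). The cKO libraries of *Eif2d* lay close together and below all controls, but the call was lost under quantile normalization and without control replicate 1 or any of the cKO replicates. Its log2 fold change ran from -0.57 to -0.11 over 14 alternative fits.

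Of eIF2B, the 5-subunit factor that recharges eIF2 with GTP, only *Eif2b3* was called, and it showed the largest change of the 64 genes. *Eif2b3* (ENSMUSG00000028683, chromosome 4, 117019402 to 117087306) encodes the gamma subunit, which pairs with epsilon in the catalytic part. It had 17.3, 11.9 and 12.3 FPKM in the controls and 6.17, 8.97 and 6.59 FPKM in cKO libraries, so that 52.3% of the control mean was left (log2 fold change -0.85, SE 0.18, limma adjusted p = 0.011). The groups did not overlap, and the call at the adjusted p held in all 15 alternative fits, with log2 fold changes from -0.99 to -0.64. All of its 100-base windows occur in no other gene. *Eif2b5* (epsilon) had 42.6, 42.3 and 35.0 FPKM in the controls and 36.7, 32.4 and 34.6 FPKM in cKO libraries, which overlap, and *Eif2b1*, *Eif2b2* and *Eif2b4* had log2 fold changes between -0.07 and 0.13. No kinase of eIF2 alpha was called by limma (1 of 4 at an unadjusted p under 0.05), where 34.0% of all genes were called and 44.8% had such a p. *Eif2ak1* (HRI) was the most abundant, with 13.2, 12.6 and 13.4 FPKM in the controls and 13.7, 14.1 and 13.5 FPKM in cKO libraries. *Eif2ak3* (PERK, the kinase of the endoplasmic reticulum stress response) had 5.05, 5.23 and 6.28 FPKM against 7.20, 6.77 and 6.95 FPKM, without overlap (log2 fold change 0.30, limma adjusted p = 0.067), and limma-voom called it higher. *Eif2ak2* (PKR) and *Eif2ak4* (GCN2) had log2 fold changes of -0.02 and 0.13.

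**Figure D3:**
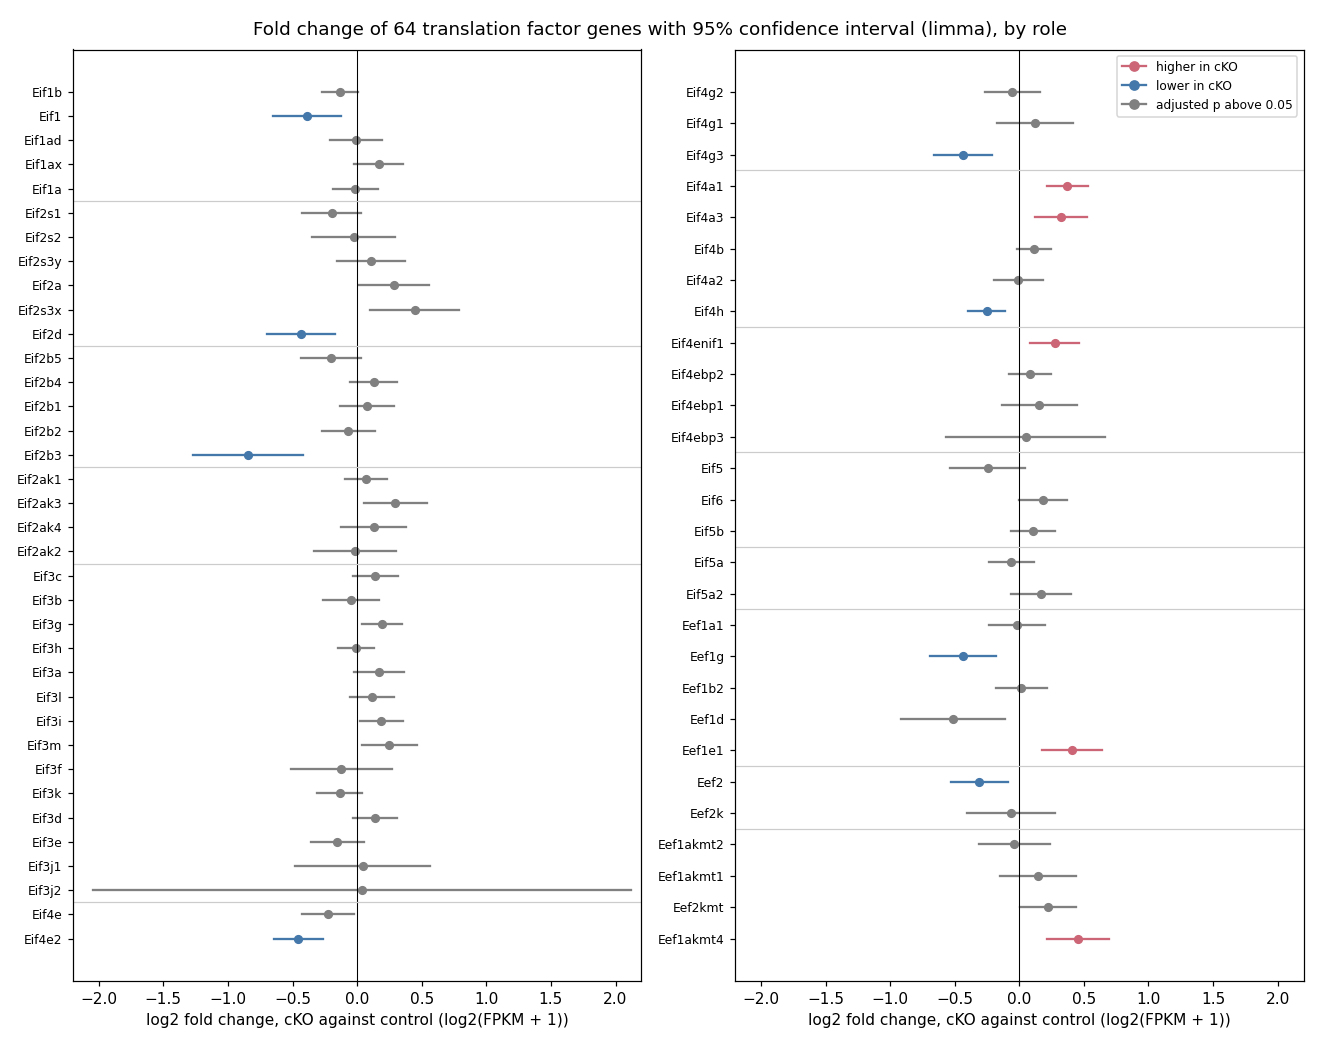
Log2 fold change (cKO against control, on log2(FPKM + 1)) of the 64 tested genes with limma's 95% confidence interval, grouped by role. The 5 genes called higher are red, the 8 called lower are blue, and the interval of *Eif3j2* runs from -2.04 to 2.12.

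eIF3, the largest initiation factor, joins the small ribosomal subunit to eIF4G. None of its 14 genes was called by limma, although 3 had an unadjusted p under 0.05 and limma-voom called 3 higher (*Eif3g*, *Eif3i* and *Eif3m*). The shares over all genes were 34.0%, 44.8% and, for limma-voom in either direction, 37.6%. Log2 fold changes ran from -0.15 to 0.25 with a median of 0.08. The cKO libraries lay above all controls for 6 of the 14 genes and below them for 0, where 21.8% of all genes lay above and 28.6% below. *Eif3c* was the most abundant, with 135.4, 121.7 and 128.1 FPKM in the controls and 136.0, 149.7 and 139.3 FPKM in cKO libraries. *Eif3g*, an RNA-binding subunit, had 112.4, 113.4 and 104.0 FPKM in the controls and 125.1, 128.4 and 122.9 FPKM in cKO libraries (log2 fold change 0.19, limma adjusted p = 0.062). *Eif3m* showed the highest log2 fold change of the complex, 0.25 (limma adjusted p = 0.072), with 41.6 ± 4.51 FPKM in the controls and 49.5 ± 1.63 FPKM in cKO libraries (SD, n = 3). The level of *Eif3h* hardly varied, at 102.3 ± 3.001 and 101.9 ± 0.905 FPKM, while *Eif3f* ranged from 30.1 to 47.4 FPKM within the cKO group. Summed over the complex, the level was 824.4 to 860.6 FPKM in the controls and 887.8 to 905.7 FPKM in cKO libraries, which do not overlap.

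*Eif3j1* and *Eif3j2*, genes for the loosely bound j subunit that share long stretches of sequence, differed between libraries of the same group. *Eif3j1* had 14.4, 10.6 and 13.7 FPKM in the controls and 17.6, 13.9 and 9.41 FPKM in cKO libraries. *Eif3j2* had 4.49, 12.5 and 7.24 FPKM in the controls and 0.963, 15.01 and 20.1 FPKM in cKO libraries. Of the fragments counted on either gene, *Eif3j2* took 11.3%, 32.5% and 17.7% in control replicates 1 to 3 and 2.19%, 30.6% and 46.6% in cKO replicates 1 to 3. The 95% Wilson intervals, which cover counting error only, were 1.58% to 3.01% for cKO replicate 1 and 44.1% to 49.1% for cKO replicate 3. The sum of both genes moved far less, with 92.0, 91.4 and 97.1 fragments per 1000000 in control and 107.5, 115.8 and 108.0 in cKO libraries. Within each group the library with the most *Eif3j1* had the least *Eif3j2*. Of their 100-base windows, 66.6% of those of *Eif3j1* and 16.0% of those of *Eif3j2* occur in no other annotated gene, so the division of fragments between the copies is uncertain. The log2 ratio of *Eif3j1* to *Eif3j2* was 0.70 ± 0.86 in control and 0.71 ± 2.24 in cKO libraries (SD, n = 3, exact permutation p = 1).

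**Figure D4:**
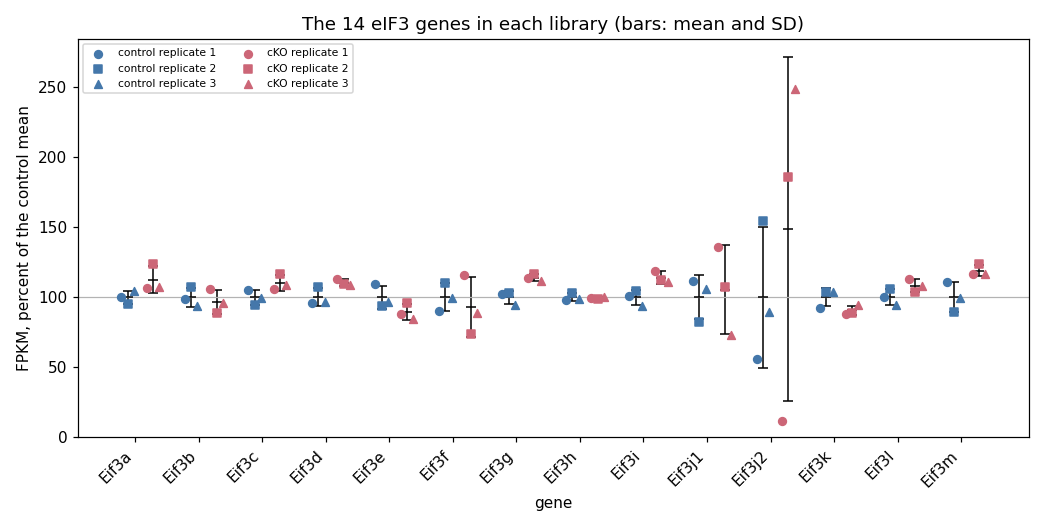
FPKM of the 14 eIF3 genes in each library, as percent of the control mean of the gene (black bars, mean and SD of 3 libraries). Most genes stay near 100 in both groups, while *Eif3j2* and, less so, *Eif3j1* spread widely within the groups.

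Among the genes that act at the cap, a cap-binding repressor and a scaffold of the eIF4E complex were lower, whereas the helicase *Eif4a1* was higher. eIF4E binds the cap and hands the mRNA to eIF4G. *Eif4e* had 29.1, 32.1 and 27.2 FPKM in the controls and 23.4, 26.2 and 25.3 FPKM in cKO libraries, without overlap, but the change missed the threshold (log2 fold change -0.23, limma adjusted p = 0.081). *Eif4e2* (ENSMUSG00000026254, chromosome 1), whose product 4EHP binds caps but not eIF4G and represses its targets, had 25.7, 22.9 and 22.2 FPKM in the controls and 17.0, 17.5 and 16.3 FPKM in cKO libraries. Its log2 fold change was -0.45 (SE 0.081, limma adjusted p = 0.0054), and the call at the adjusted p held in all 15 alternative fits. The remaining members of the family were close to silent. *Eif4e3* had 0.459, 0.519 and 0.322 FPKM in the controls and 0.557, 0.272 and 0.471 FPKM in cKO libraries. *Eif4e1b*, known from oocytes, had 0.0538, 0 and 0.0256 FPKM in the controls and 0.0847, 0 and 0 FPKM in cKO libraries, and neither gene was tested.

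Of the eIF4G scaffolds, *Eif4g3* was lower and the others were not called. *Eif4g3*, known as a gene needed for meiosis in male mice, had 28.3, 29.0 and 28.1 FPKM in the controls and 23.8, 19.3 and 19.4 FPKM in cKO libraries. The controls were within 1 FPKM of each other and above all cKO libraries (log2 fold change -0.44, SE 0.094, limma adjusted p = 0.012), and the call was lost only without cKO replicate 3 among the left-out libraries. *Eif4g1*, the main scaffold, had 59.4, 72.4 and 58.0 FPKM in the controls and 78.2, 60.7 and 68.01 FPKM in cKO libraries. *Eif4g2*, whose product lacks the eIF4E binding site, was the most abundant, with 105.4, 86.8 and 97.8 FPKM in the controls and 90.9, 98.8 and 88.7 FPKM in cKO libraries. Both overlapped between the groups.

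eIF4A unwinds structure ahead of the ribosome, with eIF4B and eIF4H as its cofactors. *Eif4a1* (ENSMUSG00000059796, chromosome 11) had 112.9, 120.9 and 112.1 FPKM in the controls and 156.3, 147.9 and 144.7 FPKM in cKO libraries, 129.7% of the control mean (log2 fold change 0.37, SE 0.067, limma adjusted p = 0.0056). The call at the adjusted p held in all 15 alternative fits. Of its 100-base windows, 77.4% occur in no other gene, and 6.62% of its exonic bases are shared with small genes on the same strand. Its paralog *Eif4a2* stayed level, with 45.2, 38.6 and 39.3 FPKM in the controls and 40.7, 42.2 and 39.3 FPKM in cKO libraries. *Eif4a3*, which despite its name is the helicase of the exon junction complex left on spliced mRNA, had 75.1, 78.6 and 68.6 FPKM in the controls and 98.0, 85.3 and 95.4 FPKM in cKO libraries (log2 fold change 0.32, SE 0.084, limma adjusted p = 0.025). The call for *Eif4a3* was lost without control replicate 1 or 3 and without cKO replicate 1 or 3. *Eif4h* was lower, with 45.1, 43.9 and 42.6 FPKM in the controls and 36.1, 36.9 and 36.7 FPKM in cKO libraries (log2 fold change -0.25, SE 0.059, limma adjusted p = 0.016), a call lost under quantile normalization and without control replicate 1, cKO replicate 1 or cKO replicate 3. *Eif4b* moved from 67.6 ± 0.559 to 73.2 ± 0.919 FPKM (SD, n = 3) without overlap, but the change of 0.11 on the log2 scale missed the threshold (limma adjusted p = 0.16).

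Among the genes that hold eIF4E back, *Eif4enif1* was higher. Its product 4E-T carries eIF4E between nucleus and cytoplasm and keeps bound mRNAs silent. It had 44.8, 40.7 and 46.0 FPKM in the controls and 52.3, 56.9 and 50.2 FPKM in cKO libraries (log2 fold change 0.27, SE 0.079, limma adjusted p = 0.037), and this call was lost when any of the 6 libraries was left out, without a filter and without the variance trend. The mTOR-controlled inhibitors were not called. *Eif4ebp1* had 16.9, 21.7 and 18.3 FPKM against 20.8, 18.9 and 24.0 FPKM, and *Eif4ebp2* 23.3, 21.5 and 22.6 FPKM against 24.5, 22.9 and 24.4 FPKM. *Eif4ebp3* was low (2.89 ± 1.15 and 2.97 ± 0.862 FPKM, SD, n = 3), and 67.3% of its exonic bases are shared with another gene on the same strand. At the joining of the ribosomal subunits, *Eif5* was the most abundant gene, with 96.8, 76.5 and 76.2 FPKM in the controls and 63.3, 78.1 and 68.01 FPKM in cKO libraries. Neither it nor *Eif5b* or *Eif6* was called (log2 fold changes -0.25, 0.11 and 0.18, and none of the 3 at an unadjusted p under 0.05). Over all genes tested, 34.0% were called and 44.8% had such a p. *Eif5a*, the hypusine-carrying factor that relieves stalled ribosomes, had 302.6, 313.9 and 287.8 FPKM in the controls and 294.8, 273.9 and 296.5 FPKM in cKO libraries. Its paralog *Eif5a2* had 21.6, 24.6 and 21.3 FPKM against 22.7, 26.1 and 27.4 FPKM, with overlap for each gene.

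For elongation, *Eef1a1* was the most abundant of the 68 genes and did not move. It had 928.9, 958.1 and 858.1 FPKM in the controls and 938.1, 851.9 and 923.1 FPKM in cKO libraries, a log2 fold change of -0.02 with a 95% interval from -0.23 to 0.20. *Eef1a2*, the paralog of muscle and neurons, was close to silent at 0.117, 0.157 and 0.166 FPKM in the controls and 0.153, 0.197 and 0.221 FPKM in cKO libraries. Of the genes of the exchange factor eEF1B, only *Eef1g* was called, and differences between these genes were not tested. *Eef1g* (gamma) was lower, with 127.9, 149.7 and 115.6 FPKM in the controls and 99.3, 89.0 and 100.6 FPKM in cKO libraries (log2 fold change -0.43, SE 0.11, limma adjusted p = 0.021). That call was lost without control replicate 1 or any of the cKO replicates, and 67.6% of the 100-base windows of *Eef1g* occur in no other gene. *Eef1d* (delta) had 42.3, 60.7 and 37.4 FPKM in the controls and 33.0, 30.5 and 32.0 FPKM in cKO libraries, where all cKO libraries are below all controls, but with the spread among controls the log2 fold change of -0.51 (95% interval -0.91 to -0.11) missed the threshold (limma adjusted p = 0.055). *Eef1b2* (beta) stayed level, at 70.2 ± 6.40 and 70.8 ± 2.88 FPKM (SD, n = 3). *Eef1e1*, which encodes a scaffold protein of the aminoacyl-tRNA synthetase complex, was higher, with 9.97, 9.84 and 8.38 FPKM in the controls and 12.0, 13.8 and 12.6 FPKM in cKO libraries (log2 fold change 0.41, SE 0.098, limma adjusted p = 0.018), a call lost without control replicate 3, cKO replicate 2 or cKO replicate 3.

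*Eef2* (ENSMUSG00000034994, chromosome 10), the translocase, was lower. It had 468.6, 515.8 and 431.5 FPKM in the controls and 396.4, 357.9 and 386.1 FPKM in cKO libraries, 80.5% of the control mean (log2 fold change -0.31, SE 0.093, limma adjusted p = 0.041). The groups did not overlap, but the call was lost without any library other than control replicate 3, under quantile normalization, with recomputed FPKM, without a filter and without the variance trend. Its kinase *Eef2k*, which switches eEF2 off, had 10.5 ± 1.55 and 10.03 ± 1.57 FPKM (SD, n = 3). Of the methyltransferases that modify the elongation factors, *Eef1akmt4* was higher, with 2.90, 3.23 and 3.01 FPKM in the controls and 4.495, 4.32 and 4.81 FPKM in cKO libraries (log2 fold change 0.45, SE 0.10, limma adjusted p = 0.014). The call was lost without cKO replicate 3, and 31.7% of the exonic bases of *Eef1akmt4* are shared with other annotated genes, among them a gene on the same strand. *Eef1akmt2* was the most abundant of them, with 19.0, 13.9 and 16.5 FPKM in the controls and 16.3, 16.2 and 15.2 FPKM in cKO libraries. *Eef1akmt1* and *Eef2kmt* were not called (log2 fold changes 0.15 and 0.22), and *Eef1akmt3*, at 0.0702 to 0.170 FPKM, was not tested.

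**Figure D5:**
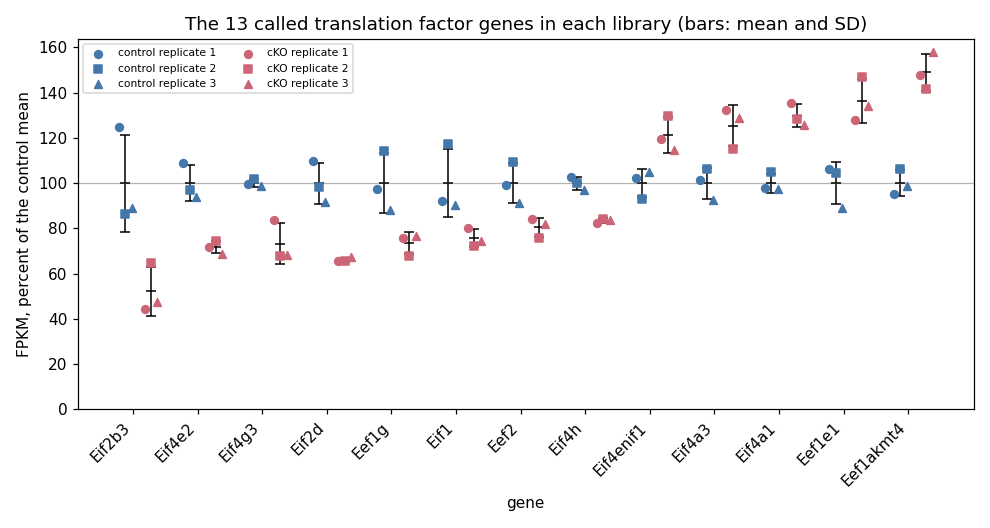
FPKM of the 13 called genes in each library, as percent of the control mean of the gene, ordered by log2 fold change (black bars, mean and SD of 3 libraries). The cKO libraries lie apart from the controls for every gene, from 52.3% of the control mean for *Eif2b3* to 149.0% for *Eef1akmt4*.

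Of the 8 lower genes, 4 had their highest control value in control replicate 2, the library with the most spermatid RNA, 4 in control replicate 1 and 0 in control replicate 3. Over all 3437 genes called lower, 51.0% had it in control replicate 2, 39.9% in control replicate 1 and 9.11% in control replicate 3. The 64 tested translation factor genes, called or not, were spread alike, with 53.1%, 34.4% and 12.5% in control replicates 2, 1 and 3. The lower genes with the highest value in control replicate 2 were *Eef2*, *Eef1g*, *Eif1* and *Eif4g3*. Without that library 8 genes were lower, of which 7 were among the 8.

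Paralogs can be compared within the same library, over whatever mixture of stages it holds, which leaves out the scaling between libraries except for the pseudocount. For 13 pairs, the log2 ratio of FPKM + 1 in each library was compared between the groups with an exact two-sided permutation test, which cannot go below 0.1 with 3 libraries against 3. The ratio of *Eif4g1* to *Eif4g3* was 1.12 ± 0.15 in control and 1.68 ± 0.077 in cKO libraries, a rise of 0.56 (SD, n = 3, exact p = 0.1, adjusted over 13 pairs 0.26). That of *Eif4a1* to *Eif4a2* was 1.47 ± 0.16 and 1.85 ± 0.066, and that of *Eif2s3x* to *Eif2s3y* was -2.27 ± 0.043 and -1.93 ± 0.049. In each of these, all cKO libraries were above all controls. The ratio of *Eif1* to *Eif1b* was -0.37 ± 0.18 and -0.63 ± 0.083, with all cKO libraries below all controls, and the difference of -0.25 was -0.15 without control replicate 2. The ratio of *Eif4e* to *Eif4e1b*, whose second gene is near 0, was also lower in all cKO libraries, by a difference of -0.23 that was -0.15 without control replicate 2 or cKO replicate 1. With a pseudocount of 0.1 the groups of this pair overlapped (exact p = 0.7). For all 5 pairs the exact p at a pseudocount of 1 was 0.1. Lack of overlap was common, at 50.4% of all single genes tested, and ratios of unrelated genes were not computed. The ratios of the other 8 pairs overlapped between the groups. Among these, *Eif4e* to *Eif4e2* had 0.31 ± 0.15 and 0.53 ± 0.086, and *Eef1a1* to *Eef1a2* had 9.64 ± 0.10 and 9.57 ± 0.097. As *Eef1a2* is near 0, the last ratio depends on the pseudocount.

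Other genes of the translation pathway were taken as a list of 49, of which 48 were found by symbol and tested. With limma, 8 were higher and 6 were lower in cKO libraries (29.2% called, against 34.0% of all genes, with 11.8% higher and 22.2% lower), and limma-voom called 12 higher and 6 lower, against 37.6% of all genes in either direction. Past a log2 fold change of 1 were *Pabpc2* and *Pabpc6*, genes for poly(A)-binding proteins of the testis. *Pabpc2* had 47.4, 44.8 and 41.7 FPKM in the controls and was listed at 0 in all cKO libraries, and *Pabpc6* had 29.3, 21.2 and 23.6 FPKM against 0.928, 1.19 and 1.14 FPKM (log2 fold change -3.61, limma adjusted p = 4.9e-06). The genes that follow were named after their values had been seen. *Pabpc1*, the main poly(A)-binding protein, had 229.8, 208.1 and 204.3 FPKM in the controls and 166.4, 128.3 and 145.4 FPKM in cKO libraries (log2 fold change -0.55, limma adjusted p = 0.0083). The cap-binding regulator *Larp1* had a log2 fold change of -0.58 (limma adjusted p = 0.0067). Of 5 tested genes that act on eIF2 phosphorylation and its response, *Atf4*, *Impact*, *Ppp1r15a* and *Ppp1r15b* were higher, with log2 fold changes from 0.27 to 0.40, limma adjusted p from 0.027 to 0.043 and no overlap, where 11.8% of all genes were called higher and 21.8% lay above all controls. *Atf4*, the transcription factor translated when eIF2 is phosphorylated, had 35.7, 29.0 and 29.3 FPKM in the controls and 47.5, 38.0 and 39.3 FPKM in cKO libraries. Of the kinases of eIF4E, *Mknk2* was higher (141.4, 133.3 and 144.9 against 187.3, 213.6 and 185.0 FPKM, log2 fold change 0.48, limma adjusted p = 0.0045), and *Mknk1* overlapped between the groups (log2 fold change -0.07, limma adjusted p = 0.60). Of 4 helicases, *Ddx3x* and its Y-linked copy *Ddx3y* were higher (log2 fold changes 0.46 and 0.35, limma adjusted p = 0.015 and 0.049), and *D1Pas1* and *Dhx29* were lower (-0.29 and -0.30, limma adjusted p = 0.025 and 0.045). *Abce1*, which splits ribosomes for recycling, was higher (log2 fold change 0.22, limma adjusted p = 0.037). None of 8 genes that modify eIF5A and eEF2 and none of 6 mitochondrial translation factors was called by limma, by limma-voom or at an unadjusted p under 0.05. The number of higher genes in the list depended on single libraries, with 2 without control replicate 1, control replicate 3 or cKO replicate 1, 5 without cKO replicate 2 and 1 without cKO replicate 3.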

How the data were processed

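The authors deposited FPKM for 54532 genes in 6 libraries, with gene lengths. The submitters' processing notes name HISAT2 2.0.5 and mm10. The counting tool and annotation release are not given in the sources used here. Start and end equal those of GENCODE M21 (GRCm38) for 65 of the 68 genes. FPKM multiplied by length was a whole multiple of a single step, within 0.05 of a fragment, for 100% of the values above 0, so fragments could be recovered. Median-of-ratios factors computed from the deposited FPKM were 1.006 in all 6 libraries, so the values already carry such a scaling.

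The 15451 genes whose mean reached 1 FPKM were tested on log2(FPKM + 1) with limma 3.58.1 in R 4.3.3 (lmFit, eBayes with trend), and p-values were adjusted by Benjamini-Hochberg, calls being made at 0.05. Fold changes are on this scale and understate changes of low genes. Libraries were grouped by their labels. Paralog ratios were tested by exact permutation (scipy 1.17.1). Computations were tested on simulated data.

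All 68 genes could be named by role. Values in every library were given for paralog pairs, the 10 largest falls and 10 largest rises among called genes and the most abundant gene of each role. By plan, other pathway genes were named past a log2 fold change of 1, and the rest were named after their values had been seen. The members and lists were chosen with earlier results of these data known. Alternatives were a pseudocount of 0.1, no filter or a mean of at least 5 FPKM, median-of-ratios, quantile and recomputed scaling, no trend, limma-voom, the replicate number as a block, a log2 fold change of at least 1, and leaving out each library.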

Additional observations from a re-analysis of the deposited data

How the results depend on the processing

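Under quantile normalization, where the median change over all genes tested was 0.21 instead of -0.01 on the log2 scale, 24 translation factor genes were higher and 5 lower, and 19 other pathway genes were higher. With FPKM recomputed from fragments 9 translation factor genes were higher, and with limma-voom 11, in each case including the 5 of the test as designed. The replicate number as a block left 1 higher (*Eif4a1*) and 3 lower (*Eif4e2*, *Eif2b3* and *Eif4g3*), so that the other 9 calls were lost, and 3 higher other pathway genes, while the share of all genes called fell from 34.0% to 24.3%. The labels do not say that numbers pair libraries, and deviations of same-numbered libraries had correlations of -0.0014, -0.11 and 0.016. A log2 fold change of at least 1 left 0 and 0 of the translation factor genes and 0 higher and 2 lower other pathway genes. Without a filter, or without the variance trend, 4 other pathway genes were higher. Leaving out 1 library gave 1 to 5 higher and 2 to 9 lower translation factor genes, and 1 to 6 higher and 4 to 5 lower other pathway genes. Of 193 values of the 13 called genes in the 15 alternative fits, 137 stayed past the threshold, 56 did not and 0 changed direction. *Eif4a1*, *Eif4e2* and *Eif2b3* stayed past the adjusted p in all of these fits, though not past a log2 fold change of 1. The cause was not tested. Of the 5 paralog ratios without overlap none changed sign under 8 alternatives, but with a pseudocount of 0.1 *Eif4e* to *Eif4e1b* no longer separated the groups (exact p = 0.7). Genes under 1 FPKM were left out of the test by choice, and were tested only without a filter.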
